A study of Mus musculus with 48 samples.

Results

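The 10 adipose progenitor markers Pdgfra, Dpp4, Pi16, Cd55, Wnt2, Ly6a, Cd34, Icam1, F3 and Clec11a were followed by diet, time and library composition in bulk RNA-seq of mouse subcutaneous fat. The 10 genes were selected by symbol from the 54532 genes of the count table. Each symbol matched 1 row, and all 10 were among the 19977 genes that passed a filter on low counts. The tissue was inguinal white adipose tissue of mice aged 8 months, of strain C57BL/6 in the labels and C57BL/6J in the paper, which were either fed ad-lib or fed in a pair of short windows of the night (TAN feeding). There were 4 libraries for each diet at each of the 6 labelled times, 8AM, 12PM, 4PM, 8PM, 12AM and 4AM, which made 48 libraries in 12 groups. The labels number the libraries of a group from 1 to 4 and do not state that each is a separate mouse, so the p-values below measure the spread between these libraries.

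Fat tissue keeps a pool of fibroblast-like progenitor cells that can form new adipocytes. Interstitial progenitors, marked by Dpp4, Pi16, Cd55 and Wnt2, are regarded as the stem-like end of this pool, and preadipocytes marked by Icam1 as its committed end, while cells marked by F3 have been described as regulatory cells that hold back adipogenesis. Pdgfra, Ly6a and Cd34 are used to sort the pool as a whole. Many of these genes are also transcribed in other cells of a fat depot. Dpp4 is the CD26 antigen of T cells, Icam1 is found on leukocytes and endothelium, Cd34 and Ly6a are found on blood vessels, and Cd55 is found on most cells that face complement. A bulk library sums all of these cells, and fewer cells of a type cannot be told apart from less RNA per cell.

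Total counts ran from 15636378 to 29913310 in ad-lib and from 15685080 to 25440243 in TAN libraries, and 0 libraries were identical. Levels are given as CPM, the counts scaled to library size with TMM factors. The series text calls the material a stromal vascular fraction, a preparation that should hold few adipocytes, and the paper describes whole tissue. The 7 adipocyte markers summed to between 1982 and 18480 CPM, and 0 of the 7 were at 0 counts in any library. Libraries differed in how much lymphoid tissue they held. A lymphocyte score, the mean log2 CPM of 10 lymphocyte markers, was at most 1.41 in 10 libraries and at least 4.30 in the other 38, with none between. The 10 low libraries were 3 of the 4 TAN libraries at 4PM (replicates 1, 2 and 4), TAN 8PM replicate 4, TAN 12AM replicates 2 and 4, ad-lib 8AM replicate 4, ad-lib 12PM replicates 1 and 3, and ad-lib 4AM replicate 3. Labelled times also differ from those in the paper's table of expression values, where the closest match of each of the 48 columns was the library of the same animal name labelled 12 h apart, over the 979 genes compared. By the labels, ad-lib Dbp, a clock output gene, was highest at 4PM (101.9 ± 19.9 CPM, SD, n = 4) and Arntl, the clock activator, at 8AM (32.3 ± 9.59 CPM). Times below are those of the sample labels, and the groups hold the same libraries under either set.

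On GRCm38, Cd55 lies on the minus strand of chromosome 1 (130439027 to 130462744), Dpp4 on the minus strand of chromosome 2 (62330073 to 62412231), Pdgfra on the plus strand of chromosome 5 (75152292 to 75198215), Icam1 on the plus strand of chromosome 9 (21015985 to 21028817) and Pi16 on the plus strand of chromosome 17 (29318877 to 29329413). The sequences just upstream of the genes on which the results turn are shown first. Cd55, Icam1 and Pdgfra differed between the diets, and Dpp4 and Pi16, which mark the same stem-like cells, went with opposite cell types. The stretches are the 250 bases before the start of the gene in RefSeq on GRCm38.p6, read 5′ to 3′ on the strand of the gene, with motif matches in capitals. RefSeq promoters were matched for 9 of the 10 members, all but Ly6a.

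Dpp4 (chr2:62412232-62412481, minus strand): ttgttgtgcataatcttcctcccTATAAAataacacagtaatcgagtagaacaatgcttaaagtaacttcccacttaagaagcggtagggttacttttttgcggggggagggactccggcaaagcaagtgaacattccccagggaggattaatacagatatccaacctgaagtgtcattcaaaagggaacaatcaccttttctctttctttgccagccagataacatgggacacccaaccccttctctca

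Icam1 (chr9:21015690-21015939, plus strand): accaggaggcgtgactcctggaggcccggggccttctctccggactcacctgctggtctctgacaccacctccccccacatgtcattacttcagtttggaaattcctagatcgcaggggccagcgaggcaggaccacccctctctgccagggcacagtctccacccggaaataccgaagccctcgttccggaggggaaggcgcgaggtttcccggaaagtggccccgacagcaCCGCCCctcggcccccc

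Cd55 (chr1:130462745-130462994, minus strand): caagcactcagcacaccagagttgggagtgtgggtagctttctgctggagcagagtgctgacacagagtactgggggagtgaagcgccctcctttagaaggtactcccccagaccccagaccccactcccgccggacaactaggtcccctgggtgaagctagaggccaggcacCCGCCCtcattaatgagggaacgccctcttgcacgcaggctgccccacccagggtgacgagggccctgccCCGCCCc

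Pi16 (chr17:29318632-29318881, plus strand): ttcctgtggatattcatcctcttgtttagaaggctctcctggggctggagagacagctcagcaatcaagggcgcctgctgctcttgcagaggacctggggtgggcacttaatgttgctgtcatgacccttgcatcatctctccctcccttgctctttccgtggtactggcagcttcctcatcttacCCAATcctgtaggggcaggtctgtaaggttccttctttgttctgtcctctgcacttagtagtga

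Pdgfra (chr5:75152001-75152250, plus strand): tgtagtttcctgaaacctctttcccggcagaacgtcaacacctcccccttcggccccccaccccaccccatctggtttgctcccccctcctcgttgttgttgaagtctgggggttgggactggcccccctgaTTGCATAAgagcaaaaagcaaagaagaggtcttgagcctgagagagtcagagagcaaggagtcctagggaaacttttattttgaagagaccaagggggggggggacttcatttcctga

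Capitals mark matches on either strand to the TATA box TATAAA, the CCAAT box, the GC box GGGCGG, the E-box CACGTG, the AP-1 motif TGANTCA, the C/EBP motif TTNNGCAA or the NF-kappaB consensus, and a base that overlaps more than 1 motif is marked once. The stretch of Dpp4 was 43.6% G and C, against a median of 52.4% over the 32851 promoters of the table, and held a TATAAA match from base -227 to -222, a motif present in 12.4% of them. Icam1 (65.2% G and C) held 1 GGGCGG match at -17 to -12, and Cd55 (64.0%) held 2, at -77 to -72 and at -7 to -2, where 32.7% of promoters held at least 1. Pi16 (52.4%) held CCAAT at -64 to -60, present in 33.9% of promoters, and Pdgfra (54.4%) held TTNNGCAA at -118 to -111, present in 9.56%. F3 was the member with TGANTCA, at -146 to -140 and at -135 to -129, present in 6.75% of promoters. CACGTG and the NF-kappaB consensus had 0 matches in the 9 stretches. Sites that depart from the letters of a motif are not counted, so 0 matches do not mean that a stretch lacks a site. These are matches of letters within the printed windows and were not tested against the expression values.

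The members spanned more than 2 orders of magnitude in abundance. Compared per kilobase of gene length, median levels over the 48 libraries were 155 CPM per kb for Ly6a (Sca-1), 29.6 for Cd55 (decay-accelerating factor), 17.2 for F3 (tissue factor), 14.4 for Cd34 (a sialomucin), 9.16 for Dpp4 (dipeptidyl peptidase 4), 8.05 for Icam1 (an adhesion molecule), 7.76 for Pdgfra (a PDGF receptor), 7.23 for Pi16 (a peptidase inhibitor), 1.28 for Clec11a (a secreted lectin) and 0.546 for Wnt2 (a Wnt ligand). Ly6a was above Cd55 in 48 of 48 libraries. Neighbours in the middle of the order were not separated, because Dpp4 was above Icam1 in 28 libraries, Icam1 above Pdgfra in 26 and Pdgfra above Pi16 in 28. Wnt2 was at 0 counts in 4 libraries (ad-lib 8AM replicate 1, TAN 8PM replicates 1 and 2 and TAN 12AM replicate 1), and a count of 0 allows up to 3 counts.

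Stem-like markers did not vary to the same degree. Pi16 ran from 1.11 CPM in TAN 8PM replicate 1 to 132 CPM in ad-lib 8AM replicate 4, a range of 119-fold, and its SD of log2 CPM within groups, 1.42, exceeded that of 92.7% of tested genes. Wnt2 had a within-group SD of 1.45, at the 93.7 percentile. Cd55, listed as a marker of the same cells, had a within-group SD of 0.53 and a 6.29-fold range, and Dpp4 had 0.78 and a 23.9-fold range. Ly6a and Pdgfra were the steadiest members, with SDs of 0.47 each and ranges of 4.55-fold and 7.61-fold.

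**Figure D1:**
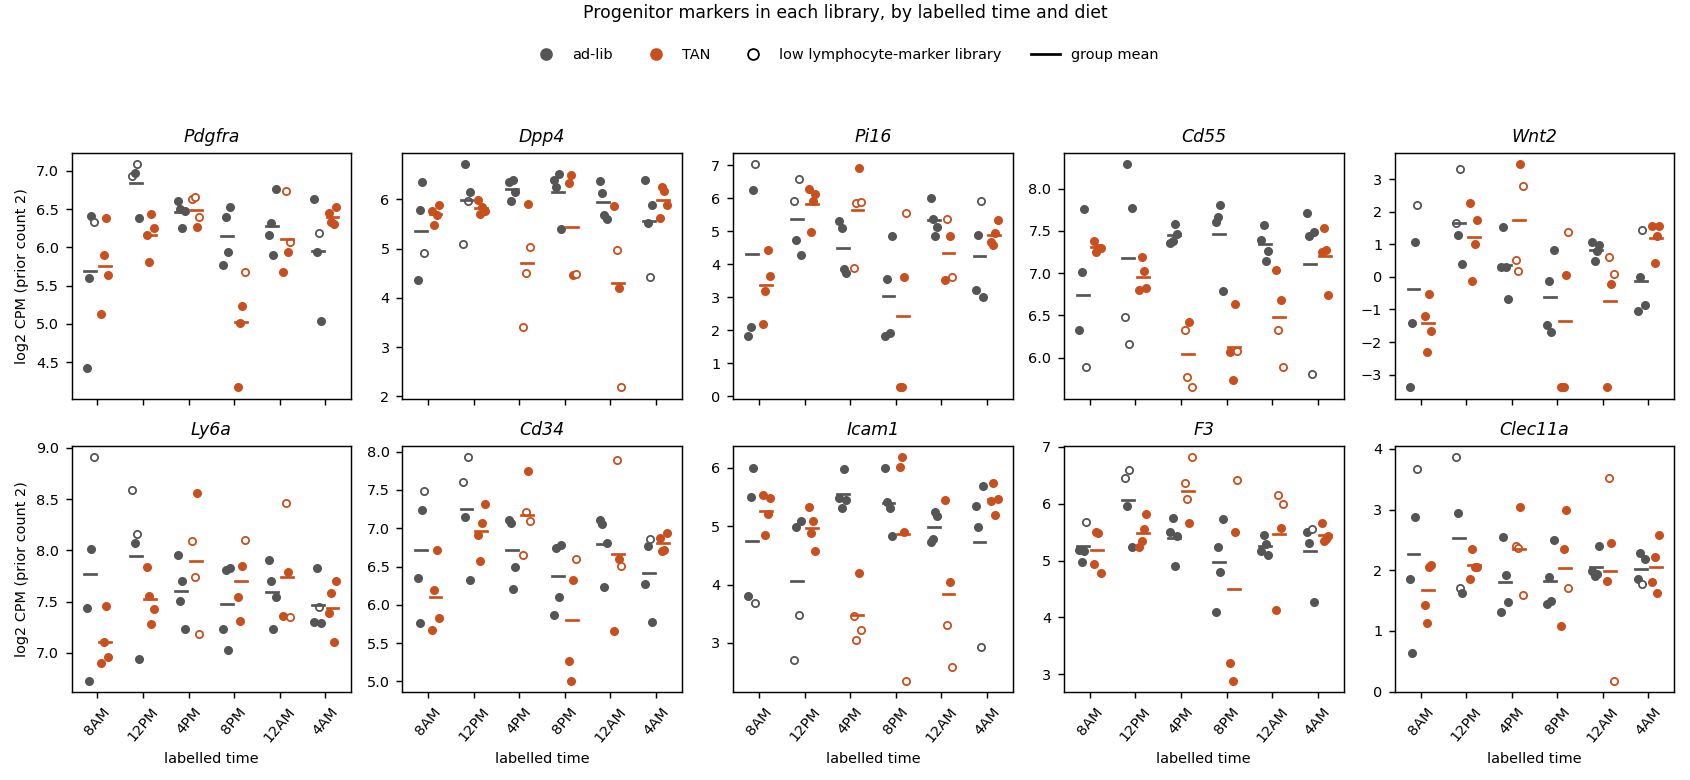
Each of the 10 panels plots log2 CPM (prior count 2) of 1 member in every library against the labelled time, ad-lib in grey and TAN in orange, with bars at group means and open circles for the 10 libraries with a lymphocyte score of at most 1.41. Open circles sit low for Cd55 and Icam1 and high for F3 in both diets.

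The first question was which members differ between TAN and ad-lib fat at a given time. A member was called at a time with an adjusted p under 0.05 in edgeR's quasi-likelihood test and an absolute log2 fold change above 1. Cd55 was called lower in TAN at 4PM and at 8PM, Icam1 at 4PM and Pdgfra at 8PM, and 0 members were called higher. At 4PM the 2 members called lower stand against 7.43% of all tested genes called lower and 10.4% called in either direction. At 8PM the 2 members called lower stand against 5.84% of genes called lower and 7.03% in either direction. At the other times 0 members were called by edgeR, limma voom or DESeq2, beside 0.015% of genes at 8AM, 0.0901% at 12PM, 0.135% at 12AM and 0% at 4AM. Under the same limit of fold change, members with an unadjusted p below 0.05 numbered 2 at 8AM (Pi16 and Wnt2), 0 at 12PM, 1 at 12AM (Dpp4) and 0 at 4AM.

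Cd55 shields cells from complement by breaking up its convertases. At 4PM it stood at 80.3, 54.5, 85.7 and 49.9 CPM in the 4 TAN libraries and at 164, 166, 191 and 177 CPM in the 4 ad-lib libraries. Every TAN library lay below every ad-lib library, and the log2 fold change was -1.37 ± 0.36 (SE, adjusted p = 0.0151, edgeR). Without ad-lib replicate 3 it was -1.30 (adjusted p = 0.0532, edgeR). At 8PM the TAN libraries held 67.0, 53.1, 99.3 and 67.6 CPM and the ad-lib libraries 194, 202, 225 and 111 CPM, again without overlap, with a log2 fold change of -1.35 ± 0.36 (adjusted p = 0.0153, edgeR). At 12AM the groups did not overlap either, at 58.9 to 131 CPM in TAN and 142 to 190 CPM in ad-lib, but the log2 fold change of -0.81 ± 0.35 had an adjusted p of 0.229 (edgeR). At 8AM, 12PM and 4AM the groups overlapped. Averaged over the 6 times, Cd55 was lower in TAN by a log2 fold change of -0.61 ± 0.14 (adjusted p = 0.0109, edgeR), and it was the 1 member with a mean effect, beside 5.42% of all genes.

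Icam1 is a receptor for leukocyte integrins and marks preadipocytes that have committed to the fat lineage. At 4PM it stood at 10.9, 8.21, 18.2 and 9.26 CPM in TAN and at 44.7, 39.4, 62.9 and 43.7 CPM in ad-lib libraries. The ranges were far apart, and the log2 fold change of -2.03 ± 0.59 (adjusted p = 0.0224, edgeR) was the largest among the calls. At 8PM Icam1 was 64.6, 72.8, 29.8 and 5.01 CPM in TAN against 64.0, 42.8, 39.7 and 28.2 CPM in ad-lib, so that TAN held both the highest and the lowest libraries. The call at 4PM was lost when TAN replicate 1, 2 or 4 or ad-lib replicate 3 was left out, with log2 fold changes from -1.99 to -1.85 and adjusted p from 0.0521 to 0.0700 (edgeR).

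Pdgfra binds PDGF ligands on stromal cells. At 8PM it stood at 17.9, 32.0, 37.7 and 51.2 CPM in TAN and at 54.4, 83.9, 61.1 and 92.0 CPM in ad-lib libraries. The highest TAN library lay just under the lowest ad-lib library, and the log2 fold change was -1.07 ± 0.32 (adjusted p = 0.0259, edgeR). The call was lost without TAN replicate 1 or 2 or ad-lib replicate 2 or 4, with log2 fold changes down to -0.85 (adjusted p = 0.0925, edgeR). At 4PM Pdgfra did not separate the diets, at 90.1 ± 11.8 CPM in TAN and 88.3 ± 9.08 CPM in ad-lib (SD, n = 4).

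Dpp4 cleaves dipeptides from peptide hormones and chemokines at the cell surface. At 4PM it stood at 10.4, 22.5, 59.6 and 32.9 CPM in TAN and at 81.6, 62.6, 84.4 and 70.8 CPM in ad-lib libraries. All TAN libraries were below all ad-lib libraries, but the log2 fold change of -1.25 ± 0.51 had an adjusted p of 0.0789 by edgeR, and limma voom and DESeq2 called it. At 12AM it was 58.3, 31.3, 18.3 and 4.43 CPM in TAN against 82.4, 69.5, 51.2 and 48.8 CPM in ad-lib, with 1 TAN library inside the ad-lib range and a log2 fold change of -1.16 ± 0.51 (adjusted p = 0.228, edgeR).

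Pi16, Wnt2, Ly6a, Cd34, F3 and Clec11a were not called at any time. Pi16 at 4PM was 14.8, 57.6, 121 and 59.1 CPM in TAN and 39.4, 34.0, 14.5 and 13.2 CPM in ad-lib libraries. The groups overlapped, and the log2 fold change was 1.32 ± 0.92 (adjusted p = 0.328, edgeR), opposite in sign to that of Dpp4 in the same libraries. Wnt2 at 4PM had a log2 fold change of 1.86 ± 1.09 (adjusted p = 0.235, edgeR) on 1.34, 1.03, 11.0 and 6.86 CPM in TAN against 1.13, 2.80, 1.13 and 0.523 CPM in ad-lib. Clec11a had log2 fold changes from -0.94 at 8AM to 0.56 at 4PM, on means between 3.23 and 7.06 CPM.

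**Figure D2:**
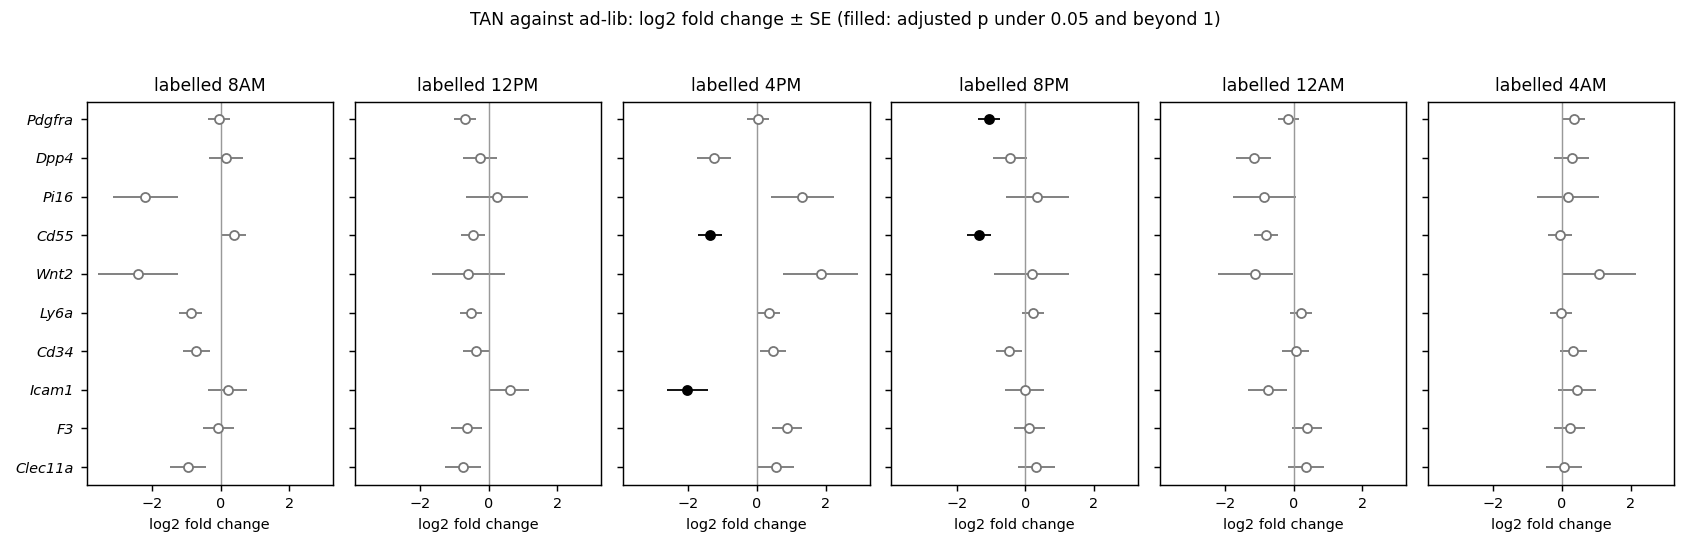
Points give the log2 fold change of TAN against ad-lib for each member, with bars of 1 SE, in 1 panel for each labelled time. Filled points are the 4 calls, Cd55 and Icam1 at 4PM and Cd55 and Pdgfra at 8PM, all to the left of 0.

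Over all 10 members the median log2 fold change moved from -0.38 at 8AM and -0.49 at 12PM to 0.41 at 4PM, 0.05 at 8PM, -0.45 at 12AM and 0.25 at 4AM. The medians over all tested genes at the same times were 0.01, 0.04, -0.09, -0.10, -0.14 and 0.00. At 4PM 7 members had positive and 3 negative fold changes, and the 3 negative ones were Dpp4, Cd55 and Icam1. The TAN effect differed between times for 0 members (edgeR, adjusted p under 0.05), beside 8.98% of all genes, with 3 members at an unadjusted p under 0.05. The lowest adjusted p was that of Cd55, 0.0529, and limma voom called Cd55.

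The second question was how the members varied over the day within each diet. In TAN libraries 2 members varied over the 6 times in edgeR's test, beside 23% of all genes, namely Pdgfra (adjusted p = 0.0193) and Cd55 (adjusted p = 0.0224). Pdgfra group means in TAN went from 56.9 ± 20.6 CPM at 8AM to 72.5 ± 12.5 at 12PM and 90.1 ± 11.8 at 4PM, fell to 34.7 ± 13.8 at 8PM, and were 71.7 ± 24.2 at 12AM and 84.6 ± 6.03 at 4AM (SD, n = 4). At 8PM libraries 1 and 2 held 17.9 and 32.0 CPM, and libraries 3 and 4 held 37.7 and 51.2 CPM. Without library 1 or without library 2 Pdgfra no longer passed the test over time. Cd55 in TAN was 158 ± 5.72 CPM at 8AM and 125 ± 16.3 at 12PM, was lowest at 4PM (67.6 ± 18.0) and 8PM (71.7 ± 19.5), and stood at 93.2 ± 31.1 at 12AM and 150 ± 32.3 at 4AM. A 24-h harmonic fitted to the 6 means was called for Cd55 alone in TAN (amplitude 0.68 log2, peak at hour 6.80 of the labels, adjusted p = 0.00485, edgeR), beside 19.8% of all genes. Without TAN 8PM libraries 1 and 2 neither member passed the test over time, and Cd55 kept its harmonic.

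In ad-lib libraries 0 members varied over time in edgeR's test (1 at an unadjusted p under 0.05, Pdgfra, and 0 by limma voom), beside 0.0551% of all genes. A 24-h harmonic was called in ad-lib for 0 members (0 at an unadjusted p under 0.05 and 0 by limma voom), beside 0.0801% of genes. Ad-lib means of Cd55 lay between 121 ± 69.7 CPM at 8AM and 183 ± 49.8 CPM at 8PM, and those of Pdgfra between 58.8 ± 29.9 CPM at 8AM and 117 ± 23.2 CPM at 12PM. Ad-lib 8AM, 12PM and 4AM each held at least 1 library with few lymphocyte markers, and the SD of Cd55 in these groups was 67.8 to 115 CPM, against 12.3 to 49.8 CPM in the other ad-lib groups.

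The third question was which members followed the cellular makeup of the libraries. A marker score was added to the model beside the 12 groups, so that its slope compares libraries of the same diet and time, and 1 unit of score is 1 doubling of the marker level. With the lymphocyte score 3 members rose, beside 23% of all genes, and 6 fell, beside 21.9%. The 3 that rose were Icam1 (0.35 ± 0.03 log2 per unit, adjusted p = 6.2e-14, edgeR), Dpp4 (0.21 ± 0.04, adjusted p = 1.7e-05) and Cd55 (0.18 ± 0.02, adjusted p = 2.9e-08). The 6 that fell were Wnt2 (-0.30 ± 0.09), Pi16 (-0.26 ± 0.08), F3 (-0.19 ± 0.04), Cd34 (-0.13 ± 0.03), Ly6a (-0.08 ± 0.03) and Pdgfra (-0.07 ± 0.03), with adjusted p from 2.5e-05 to 0.0353 (edgeR). Clec11a had a slope of -0.06 ± 0.05 (adjusted p = 0.389). The markers of interstitial progenitors were therefore split, Dpp4 and Cd55 rising and Pi16 and Wnt2 falling with the same score.

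Ad-lib libraries at 12PM give an example of the split without any change of diet. Replicates 1 and 3 had lymphocyte scores of -0.44 and -0.61, and replicates 2 and 4 had 6.86 and 6.62. Icam1 was 6.44 and 11.0 CPM in the low-score and 31.7 and 34.1 CPM in the high-score libraries, and Cd55 was 88.9 and 71.4 against 314 and 219 CPM. Pi16 went the other way, at 60.0 and 96.1 CPM in the low-score against 26.5 and 19.4 CPM in the high-score libraries. F3 did so too, at 87.7 and 96.7 against 61.8 and 37.8 CPM. Dpp4 was less cleanly ordered, at 34.0 and 62.1 against 106 and 70.9 CPM. Pi16 was not ordered by the score in every group. In TAN at 4PM it was highest, at 121 CPM, in the library with the highest score (4.72). In ad-lib at 8AM it was 132 CPM at a score of 1.23, 76.5 at 7.29 and 3.48 at 4.30. It was highest in the low-score library of ad-lib at 4AM (60.3 CPM) and of TAN at 8PM (46.9 CPM).

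**Figure D3:**
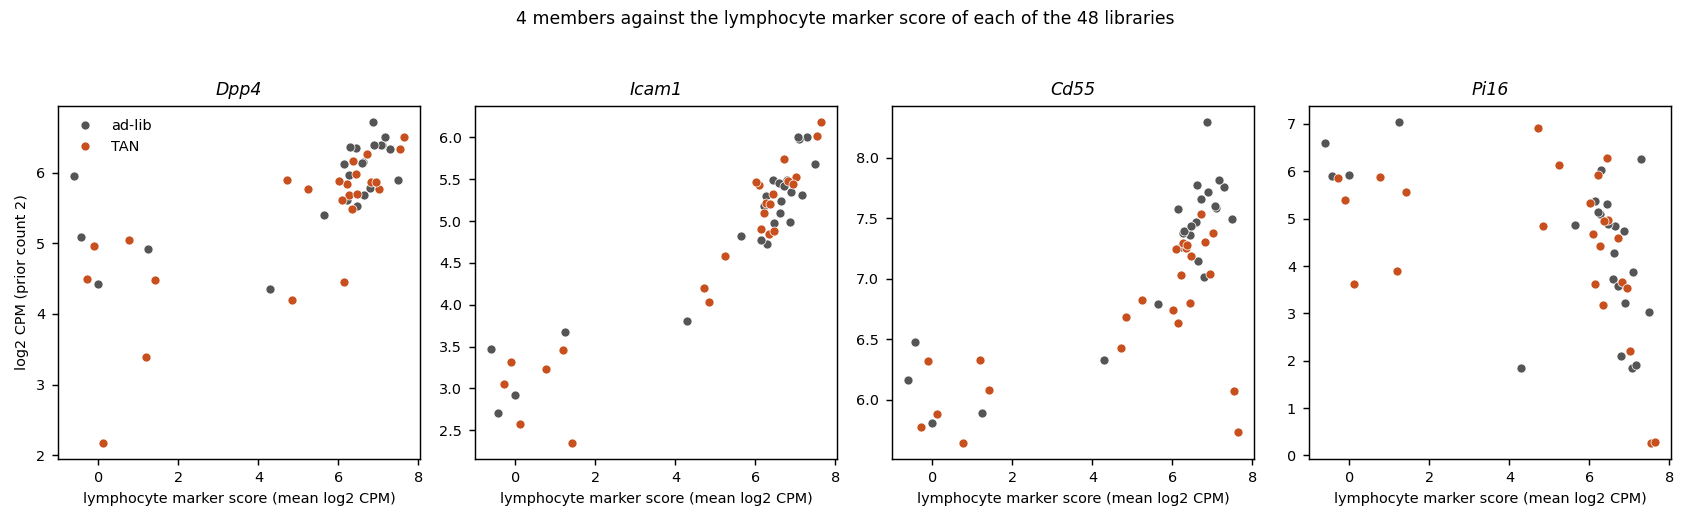
Each panel plots log2 CPM of 1 member against the lymphocyte score of the library, 1 point for each of the 48 libraries, ad-lib in grey and TAN in orange. Icam1, Dpp4 and Cd55 rise from the 10 libraries at scores of at most 1.41 to the 38 at 4.30 or more, and Pi16 is spread widely in both sets.

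Scores of other cell types gave much the same split with the signs turned. With a pan-stromal score, the mean of 8 fibroblast genes such as Col1a1 and Dcn, 7 members rose, beside 21.9% of all genes, and 2 fell, beside 16.3%. Pi16 (2.68 ± 0.26 log2 per unit) and Wnt2 (2.68 ± 0.49) rose by more than 2 doublings for each doubling of the stromal genes, F3 (1.07 ± 0.17) and Cd34 (0.96 ± 0.13) by about 1, and Clec11a (0.81 ± 0.25), Pdgfra (0.67 ± 0.12) and Ly6a (0.61 ± 0.13) by less. Icam1 (-0.97 ± 0.27) and Dpp4 (-0.66 ± 0.25) fell, and Cd55 had a slope of -0.21 ± 0.19 (adjusted p = 0.396, edgeR). Neither fall passed the test without TAN 8PM libraries 1 and 2. Icam1 was then at -0.84 ± 0.37 (adjusted p = 0.130, edgeR) and Dpp4 at -0.31 ± 0.33 (adjusted p = 0.568). Neither fall passed it without the low-lymphocyte libraries either, where the slopes were -0.43 ± 0.22 for Icam1 and -0.59 ± 0.24 for Dpp4. With the endothelial score 5 members rose, beside 24.2% of all genes, and 3 fell, beside 21%. Those that rose were Wnt2, Pi16, F3, Cd34 and Pdgfra, and those that fell were Icam1 (-1.66 ± 0.25), Dpp4 (-1.36 ± 0.23) and Cd55 (-0.54 ± 0.22). The endothelial slope of Cd55 was -0.06 ± 0.20 without the low-lymphocyte libraries and -1.14 ± 0.24 without TAN 8PM libraries 1 and 2. With the skeletal muscle score 0 members passed the test (0 at an unadjusted p under 0.05 and 0 by limma voom), beside 0.791% of genes rising and 0.01% falling. CPM are shares of a library, so that these scores are not independent of each other.

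**Figure D4:**
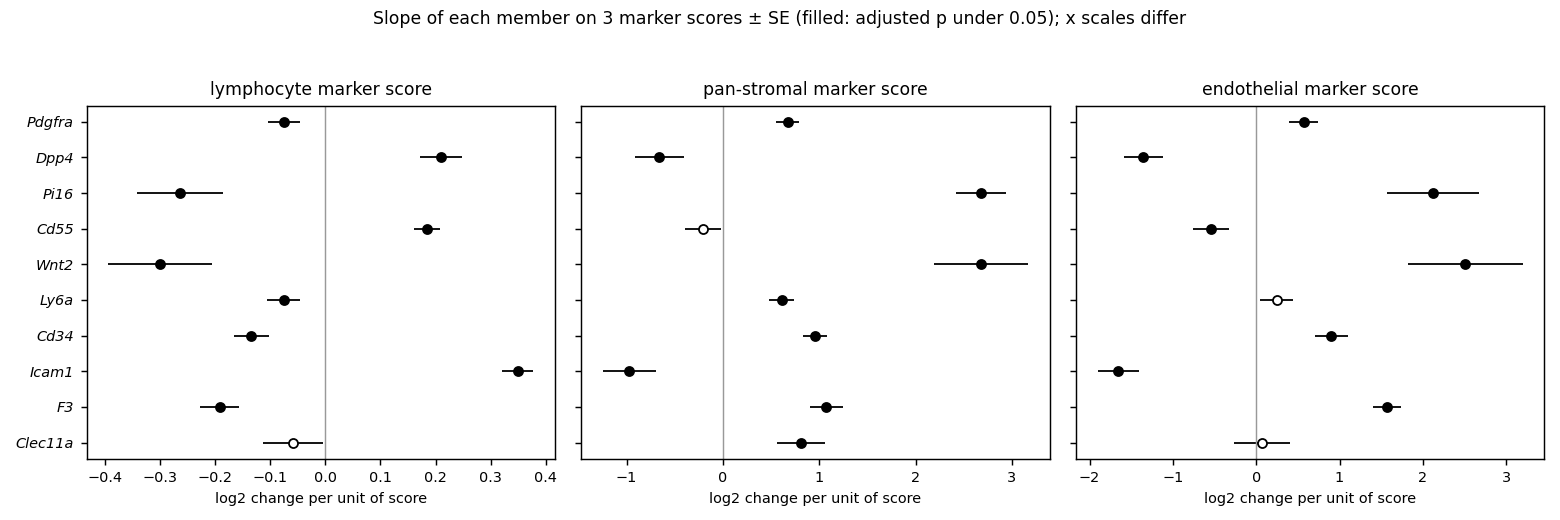
Slopes of each member on the lymphocyte, pan-stromal and endothelial scores, in log2 change per unit of score, with bars of 1 SE and filled points for an adjusted p under 0.05. Dpp4 and Icam1 lie to the right of 0 on the lymphocyte score and to the left on the other two, where Pi16, Wnt2, Cd34, F3 and Pdgfra lie to the right.

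Further genes of each progenitor class were read on the lymphocyte score, beside 21.9% of all tested genes falling and 23% rising with it. Of 9 further interstitial progenitor genes, 5 fell with the lymphocyte score and 0 rose, among them Sema3c (-0.26 ± 0.04) and Pcolce2 (-0.23 ± 0.07). Of 10 further genes of committed preadipocytes, 8 fell and 0 rose, among them Pparg (-0.19 ± 0.04), the master regulator of fat cell formation, and the collagen gene Col15a1 (-0.20 ± 0.04), so that Icam1 was the 1 gene of its class that rose. Of 6 further genes of the F3 class, 3 fell and 1 rose, the cholesterol transporter Abcg1 (0.32 ± 0.03). Of the 8 pan-stromal genes, 7 fell and 1 rose, Thy1 (0.44 ± 0.04), which T cells also express. Of 5 further genes of the PDGF system, 4 fell and 0 rose. The median slope over all tested genes was -0.01. Markers of other cell types fell with the score too. Of 7 adipocyte markers 7 fell and 0 rose, and of 8 endothelial markers 6 fell and 0 rose. Of 8 macrophage markers 1 fell and 5 rose. A fall with the lymphocyte score was thus not particular to the progenitor classes.

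The TAN effect was then read with each score in the model. With the lymphocyte score, Icam1 at 4PM went from -2.03 to a log2 fold change of -0.33 (adjusted p = 0.654, edgeR), Cd55 at 4PM from -1.37 to -0.46 (adjusted p = 0.443) and Dpp4 at 4PM from -1.25 to -0.31 (adjusted p = 0.773). The calls at 8PM remained, at -1.07 for Cd55 (adjusted p = 0.00189) and -1.18 for Pdgfra (adjusted p = 0.00524). With the pan-stromal or the endothelial score the calls of Cd55 at both times and of Icam1 at 4PM remained, while Pdgfra at 8PM went to -0.58 (adjusted p = 0.107) and -0.57 (adjusted p = 0.201). With the endothelial score, Dpp4 passed both limits at 4PM (-1.34, adjusted p = 0.00721), 8PM (-1.95, adjusted p = 0.00364) and 12AM (-1.55, adjusted p = 0.0165). Icam1 did so at 8PM (-1.86, adjusted p = 0.00689) and 12AM (-1.29, adjusted p = 0.0367), and F3 at 8PM in the opposite direction (1.02, adjusted p = 0.0128). Without a score, Dpp4, Icam1 and F3 at 8PM were at -0.45, -0.02 and 0.11, with overlapping groups. Endothelial scores at 8PM were 4.23 to 5.78 in TAN and 5.61 to 6.48 in ad-lib libraries. Score and diet were thus largely confounded at 8PM, and their parts cannot be told apart there. Shares of all genes called are not given here for the models with a score.

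**Figure D5:**
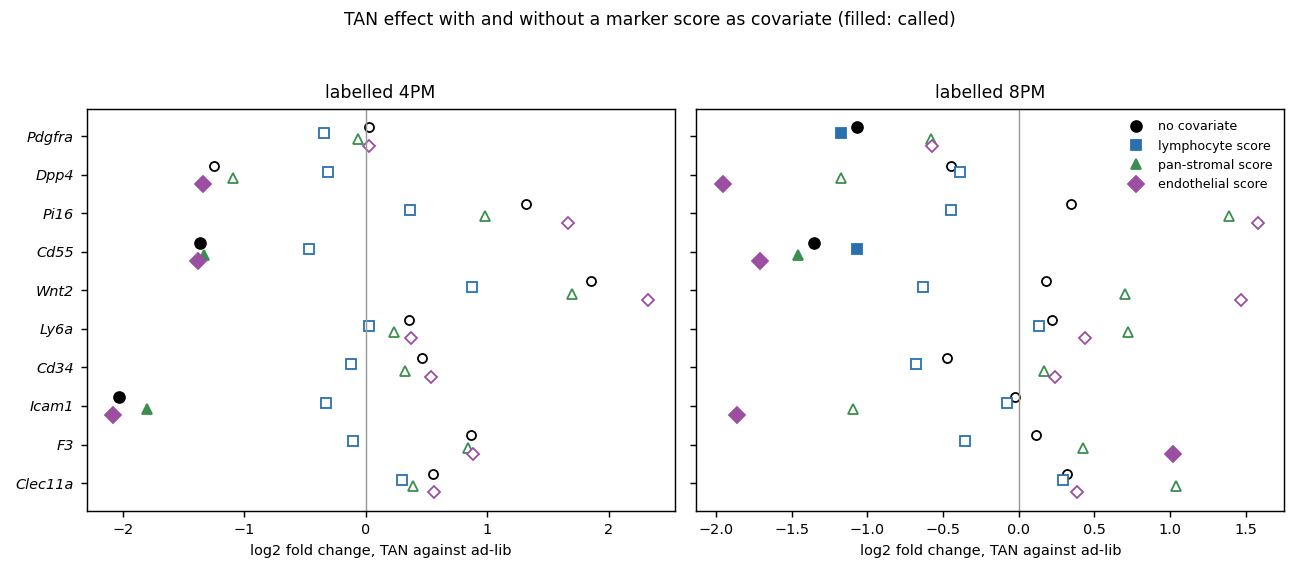
Log2 fold changes of TAN against ad-lib at 4PM and 8PM from the model without a score and with 1 marker score added, filled where the member was called. At 4PM the squares of the lymphocyte score lie nearer to 0 than the circles for Dpp4, Cd55 and Icam1, and at 8PM Cd55 is filled in all 4 models.

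The marker lists moved with diet at the same times. At 4PM the summed lymphocyte markers were 9.56 to 317 CPM in TAN (median 26.5) and 900.4 to 1588 CPM in ad-lib libraries (median 1124), and Cd22 and Cd3g were called lower. Among 5 genes of lymph node stroma 2 were called lower, Cr2 (log2 fold change -4.98 ± 1.44, adjusted p = 0.0226, edgeR) and Cxcl13 (-2.86 ± 0.77, adjusted p = 0.0174). The 7 adipocyte markers summed to 13751 to 16589 CPM in TAN against 5712 to 9043 CPM in ad-lib, and 1 of them, Retn, was called higher. Abcg1, the gene of the F3 class that rose with the lymphocyte score, was called lower (-1.89 ± 0.56), and among genes of committed preadipocytes Cxcl14 (1.92 ± 0.64) and Fabp4 (1.44 ± 0.45) were called higher while Icam1 was called lower. The PDGF ligand Pdgfc was called higher (1.07 ± 0.33), and the macrophage gene Csf1r (-1.24 ± 0.33) and the epithelial gene Epcam (-4.97 ± 1.42) lower, each the 1 call of its list. Lymphocyte scores at 4PM were -0.28 to 4.72 in TAN and 6.26 to 7.09 in ad-lib libraries, without overlap. Fold changes at 4PM with this score in the model therefore carry slopes from within groups across that gap. Diet and lymphoid tissue cannot be told apart at this time. The part of lymphoid tissue in the lower Icam1, Cd55 and Dpp4 at 4PM was not tested.

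At 8PM the lymphocyte markers overlapped between the diets, at 37.2 to 2501 CPM in TAN and 565 to 1735 CPM in ad-lib. Endothelial markers summed to 231 to 492 CPM in TAN against 503 to 788 CPM in ad-lib, and 2 of 8 were called lower, Cdh5 and Kdr. Pdgfrb, the other PDGF receptor and a pan-stromal gene, was called lower (-1.01 ± 0.28, adjusted p = 0.0208, edgeR), as were the pericyte gene Abcc9 (-1.45 ± 0.31) and the macrophage gene Mrc1 (-1.58 ± 0.42). TAN 8PM libraries 1 and 2 also had the lowest endothelial and pan-stromal scores of the series, the lowest summed adipocyte markers (3090 and 1982 CPM) and the highest lymphocyte scores (7.53 and 7.63). They had the lowest F3 (9.11 and 7.30 CPM) and Pi16 (1.11 and 1.12 CPM) of all 48 libraries, Wnt2 at 0 counts, and Dpp4 at 80.7 and 90.6 CPM, beside 21.9 and 22.3 CPM in TAN 8PM libraries 3 and 4. In this group Dpp4 and Pi16 were thus high in opposite libraries.

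These calls were also read without the libraries that stood apart. Without the 10 low-lymphocyte libraries, which leaves 1 TAN library at 4PM that is assumed to vary like the other groups, Cd55 at 4PM was -1.03 ± 0.41 (adjusted p = 0.0932, edgeR) and Icam1 -1.40 ± 0.58 (adjusted p = 0.108), and Dpp4 was -0.34 ± 0.57. At 8PM Cd55 (-1.32 ± 0.27) and Pdgfra (-1.31 ± 0.36) were called, beside 14.8% of all genes called in either direction at that time. In these 38 libraries the lymphocyte slopes of Icam1 (0.68 ± 0.06), Dpp4 (0.67 ± 0.09) and Cd55 (0.25 ± 0.08) were positive and past the threshold, as were the negative slopes of F3 (-0.57 ± 0.13) and Cd34 (-0.32 ± 0.12), while Pi16 (-0.69 ± 0.38, adjusted p = 0.174) and Wnt2 (-0.88 ± 0.49, adjusted p = 0.164) were not. Without TAN 8PM libraries 1 and 2, Pdgfra at 8PM was -0.69 ± 0.38 (adjusted p = 0.206, edgeR) and Cd55 -1.11 ± 0.46 (adjusted p = 0.0940). The 2 calls at 4PM remained, beside 14% of all genes called in either direction at that time.

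Which genes run most like each member was described by Pearson's r of log2 CPM after subtracting the mean of each group of diet and time, over the 48 libraries, which share composition and depth. The search covered 14763 genes with a mean of at least 1 CPM. Icam1 ran closest to Clu (r = 0.97) and to Ptpn6 (r = 0.97), a phosphatase of blood cells, and the closest other member, Dpp4, ranked 1539. Dpp4 ran closest to Nuak2 (r = 0.91) and Tbxa2r (r = 0.91), and Cd55 to Il22ra2 (r = 0.90) and Pgap1 (r = 0.90). Pi16 ran closest to the matrix gene Emilin2 (r = 0.90) and to Igfbp6 (r = 0.90), with Wnt2 at rank 12, and Wnt2 had Pi16 as its closest gene of all (r = 0.86). Its next was Car8 (r = 0.85). Cd34 ran closest to Clec3b (r = 0.92) and Rnase4 (r = 0.91), and Pdgfra to the matrix protease Mmp2 (r = 0.81) and Bdh2 (r = 0.80). Ly6a ran closest to the chemokine genes Ccl6 (r = 0.92) and Pf4 (r = 0.88), F3 to Cyp2j9 (r = 0.91) and Pcyt1a (r = 0.91), and Clec11a to Rab31 (r = 0.80) and Cst3 (r = 0.78). Over the 38 libraries with higher lymphocyte scores Wnt2 again had Pi16 as its closest gene (r = 0.85), Pi16 and Cd34 ran with Dcn (r = 0.90 and 0.94), and Dpp4 ran closest to Cyld (r = 0.94) and Birc3 (r = 0.94), both of the NF-kappaB pathway.

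Overlapping annotation was small beside the members. Antisense genes over Dpp4, Cd55 and Cd34 had at most 2.93%, 3.09% and 2.01% of the counts of the member in any library, and Cd55b, a near copy of Cd55, at most 0.634%. Whether the counting used strand is not given in the sources used here, so reads of a member and its antisense partner cannot be told apart.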

How the data were processed

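Poly-A RNA of iWAT was sequenced on Illumina instruments, and the authors deposited raw counts per gene for 48 libraries, without normalization. The submitters' processing notes name TopHat 1.3.3, DESeq2 1.20.0, edgeR and limma, and the builds mm9, mm10 and GRCm38, and the counting tool and its strand setting are not given in the sources used here. A further table of FPKM values averaged over each group was not used. Gene coordinates in the count table matched GENCODE M21 for 98.1% of genes. The members and marker lists were chosen with earlier results of these data known. Genes were kept by filterByExpr (minimum count 10), and 0 sample columns were unused.

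Counts were fitted with edgeR 4.0.16 in R 4.3.3 (TMM factors, robust quasi-likelihood, 12 groups of diet and time in 1 model, Benjamini-Hochberg adjustment over all 19977 genes). Other than calls at a time, tests needed an adjusted p under 0.05 alone. All 10 members are named, and of each other list at most the 3 genes furthest from 0 among those called. For each member the 2 genes nearest in residual log2 CPM are given, and Arntl and Dbp as a check of times. A result that this rule covers is not reported here. Pparg, Col15a1, Sema3c, Pcolce2, Thy1, Abcg1 (for its slope), Dcn, Cyld and Birc3 were chosen for mention after their values were seen. Marker scores are mean log2 CPM (prior count 2). The alternatives were RLE factors, other filters, limma voom 3.58.1, DESeq2 1.42.0, a replicate block, mitochondrial genes or single libraries left out, separate fits and score covariates; leaving out the low-lymphocyte libraries or TAN 8PM libraries 1 and 2 was chosen after seeing the data. On simulated counts of 19977 genes, 45.5% of 200 genes with a log2 fold change of 2 at 4PM, 56.5% of 200 with a mean effect of 1, 67.5% of 200 with a TAN harmonic of amplitude 1.5 and 57.5% of 200 with a lymphocyte slope of 0.3 were recovered. Recovery needed an adjusted p under 0.05 alone, without the limit of fold change. Apart from the simulated effects every library shared the same mean for each gene, without the differences in composition of the real libraries.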

Additional observations from a re-analysis of the deposited data

Results flagged for a closer look

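Among the 120 sets of 4 libraries (10 members in 12 groups), 2 had a library whose gap to the next one exceeded Dixon's 95% critical value on log2 CPM, where chance gives about 1 in 20. Cd55 was 55.8 CPM in ad-lib 4AM replicate 3 and 173 to 210.0 CPM in the other libraries of its group, and this library had a lymphocyte score of -0.01. Clec11a was 5.16 CPM in ad-lib 12AM replicate 4 and 3.65 to 3.87 CPM in the others of its group.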

How the results depend on the processing

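RLE factors, no filter on low counts, mitochondrial genes left out and the replicate block changed no count of members by more than 1.5 times. A pairing of libraries by replicate number was not established. In 10 of 24 comparisons of a TAN with an ad-lib library that share number and time, residuals correlated at over 0.1. The median was -0.01 and the range -0.59 to 0.84, and libraries of unlike number were not compared. With the replicate block the calls were the same 4 at the 2 times.

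The 4 calls at single times were 2 with the lymphocyte score as a covariate, 9 with the endothelial score (1 higher, 8 lower in TAN), 2 without the 10 low-lymphocyte libraries and 2 without TAN 8PM libraries 1 and 2. Mean effects (1) were 3 with the endothelial score and 2 without the TAN 8PM libraries. Effects that differed between times (0) were 6 with the endothelial score, 4 with the pan-stromal score and 1 each with the muscle score, with at least 10 counts in every library, with limma voom, without the low-lymphocyte libraries and without the TAN 8PM libraries. Variation over time in TAN (2) was called for 4 members with the lymphocyte score, the muscle score or at least 10 counts, 5 with the endothelial score or without the low-lymphocyte libraries, 6 with limma voom and 1 without the TAN 8PM libraries. Harmonics in TAN (1) were 5 with the endothelial score, 3 with the pan-stromal score, 2 without the low-lymphocyte libraries and 4 without the TAN 8PM libraries. Members that went with the lymphocyte score (9) were 5 without the low-lymphocyte libraries, which leaves a narrower range of scores. Where no construction is named, the cause was not tested. In separate fits of each time point Pdgfra and Cd55 at 8PM lost their calls at log2 fold changes of -1.06 and -1.35 (adjusted p 0.137 and 0.0972, edgeR), and Dpp4 at 4PM was called.

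With 1 library left out in turn, calls at single times ranged from 2 to 5 and were 2 without ad-lib 4PM replicate 3. Effects that differed between times ranged from 0 to 2, variation over time in TAN from 1 (without TAN 8PM replicate 1 or 2) to 7 (without TAN 8PM replicate 4), with 4 without ad-lib 8AM replicate 4 and 5 without TAN 12AM replicate 1, and lymphocyte associations from 7 to 9. Mean effects and TAN harmonics were 1 in every run, and ad-lib variation and harmonics 0. Leaving out single libraries was not run for the endothelial, pan-stromal and muscle slopes. At 15636378 counts or more per library, depth limits Wnt2 (0 to 238 counts per library) and Clec11a (15 to 336) most.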
